A study of Arabidopsis thaliana with 22 samples.

Results

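Chloroplasts and mitochondria keep small genomes of their own, which encode core subunits of photosynthesis, respiration and the organelles' ribosomes, while most of their proteins are encoded in the nucleus. Chloroplast genes are largely read as multi-gene transcripts that are then cut and trimmed, and the abundance of each piece depends on both transcription and RNA stability. Organelle transcripts mostly lack the long poly(A) tails of nuclear mRNA. Here 125 probe sets of the Arabidopsis ATH1 array were followed, out of 22746 that are not controls. They were chosen by their ID numbers alone, from 244901 to 245025, the stretch of the array that holds the organelle genomes. The annotation named chloroplast genes for 72 of them, mitochondrial genes for 13 and loci of chromosome 2 for 5, and 35 had no gene named. Chromosome 2 of Arabidopsis carries an inserted copy of mitochondrial DNA, so a signal there may come from either genome. Of the chloroplast probe sets 64 listed 1 gene and 8 listed both copies of a gene in the inverted repeat. A probe set listing several genes or none is called here by its ID.

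All samples were leaves of Arabidopsis thaliana ecotype Col-0 (stock N3176) at growth stage 3.9, grown on compost at 20 °C and 75% humidity in 12 h light and 12 h dark. Leaves were taken at 0, 1, 2, 4, 8, 12, 13, 14, 16, 20 and 24 h, with 2 biological replicates per hour and 20 plants pooled per sample, which gives 22 arrays. All arrays numbered replicate 2 are called series 2 here and all arrays numbered replicate 1 series 1, with 11 arrays each. For the arrays called 8 h, another label reads 5 h, and for those called 16 h it reads 14 h. No label states whether 0 h began the light or the dark. The titles of the series 1 arrays hold numbers without a unit. Read as clock times, they put 0 h in the evening and 12 h in the morning. GI, which peaks in the evening under the circadian clock, had its highest mean at 20 h. The RNA was total RNA copied from an oligo(dT) primer. In whole leaves, fewer cells of a type and less RNA per cell cannot be told apart, nor can fewer organelles per cell.

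The values were linear intensities scaled by the authors to a trimmed mean of 100.01 on every array. A probe set was called above background on an array where it exceeded the highest of 27 bacterial control probe sets not spiked into the sample, which was 7.8 to 29.2 across arrays. Of the nuclear leaf marker genes 3 of 9 were named, with means from 2179 to 3891, and of the root marker genes 2 of 8, with means of 14.0 and 24.8. The 3′ over 5′ ratios of control genes, used here as a sign of RNA quality, differed between the series. The actin probe sets gave a 3′ over 5′ ratio of 3.20 ± 1.21 in series 2 and 1.85 ± 0.28 in series 1 (SD, n = 11 each), and the ratio for GAPDH was 1.21 ± 0.11 in series 2 and 1.03 ± 0.10 in series 1. The actin ratios of the series overlapped, from 2.35 to 6.31 in series 2 and from 1.56 to 2.52 in series 1. The 25S ribosomal RNA control was low on both 2 h arrays (168 in series 2 and 127 in series 1), on the 0 h array of series 2 (311) and on the 1 h array of series 1 (436), and was between 612 and 2874 on the other arrays.

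Chloroplast transcripts were among the brightest on the array, and mitochondrial ones were mostly dim. The mean intensity over 22 arrays had a median of 1410 over the 72 chloroplast probe sets (36.5 to 4393), 30.9 over the 13 mitochondrial ones (1.57 to 376) and 12.1 over the 35 with no gene named. The median of the 22621 other probe sets was 42.3. A mean over 1000 was reached by 46 of 72 chloroplast probe sets and by 474 of the others, which is 2.1%. Of the 100 brightest probe sets of the array 15 were in the block. Signal was above background on all 22 arrays for 69 of 72 chloroplast and 6 of 13 mitochondrial probe sets, and 8 of the 125 were above it on no array. A probe set's level also depends on how well its probes bind, so no order of abundance among genes is drawn from these values.

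The brightest were subunits of the chloroplast ATP synthase and of photosystem I. atpB, the beta subunit of the ATP synthase, averaged 4393 ± 706 (SD over 22 arrays), with a lowest value of 3105, a median of 4352 and a highest of 5805. atpE, its epsilon subunit, averaged 3997 ± 591 and atpA, its alpha subunit, 3616 ± 602. psaB, a core protein of photosystem I that binds the reaction centre chlorophylls, averaged 3708 ± 656. All 4 were bright on every array.

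In the cytochrome b6f complex, which links the photosystems, petB (cytochrome b6) averaged 3310 ± 492 and the small subunit petN 366 ± 274. In photosystem II the averages ran from 174 for psbN to 3272 for psbM, a small subunit. rbcL, the large subunit of the carbon-fixing enzyme Rubisco, averaged 1133 ± 273 and lay between 462 and 1653. The 11 probe sets of the NDH complex, which passes electrons back into the photosynthetic chain, ran from 93.7 for 244991_s_at (both copies of ndhB) to 2941 for ndhI. The 4 subunits of the plastid RNA polymerase ran from 58.4 for rpoB to 1093 for rpoC1. Among the 19 ribosomal protein probe sets, 244987_s_at (both copies of rpl2) averaged 3373 ± 482 and rps14 58.7 ± 24.7. Of the other chloroplast genes ccsA, needed to attach haem to cytochromes, averaged 2694 ± 343, and 244989_s_at (both copies of ycf2) had the lowest chloroplast mean at 36.5. In most groups the brightest and the dimmest member lay far apart.

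Among mitochondrial genes nad4, a subunit of respiratory complex I, was the brightest at 376 ± 252, with 99.5 as its lowest, 409 as its median and 994 as its highest value. The probe set 244944_s_at, which lists the mitochondrial ribosomal genes rps3 and rpl16, averaged 247 ± 174, and ccb382, which serves the maturation of cytochrome c, 198 ± 48.7. The others were dimmer. cox2, a subunit of the terminal oxidase, averaged 21.7 and was above background on 12 arrays, and matR, an intron maturase, averaged 1.57 and was above it on none. The 35 probe sets with no gene named included 244979_at at 1012 and 244981_at at 958, and the mean of 29 of them was under 30.

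Tests used log2(value + 4.01), which understates the change of dim genes, and were limited to the 13648 probe sets with the highest mean log2 value. All 72 chloroplast probe sets passed this filter, with 7 of the 13 mitochondrial, 3 of the 5 chromosome 2 and 8 of the 35 unnamed ones, 90 in all. The daily range, the highest minus the lowest of the 11 hourly means, had a median of 0.70 on the log2 scale over the 90 and of 0.78 over the other 13558 probe sets. It reached 1 or more in 24 of 90 (26.7%), against 33.5% of the others. No tested member reached 2, which 1065 of the others (7.86%) did, and the widest was 1.84 in the block against 8.30 among the others. The SD between the arrays of an hour had a median of 0.39 for the 90 and 0.25 for the others, so the members' range stood closer to this SD. The arrays of an hour come from different series, so the SD includes the mean difference between the series and does not measure noise alone.

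**Figure D1:**
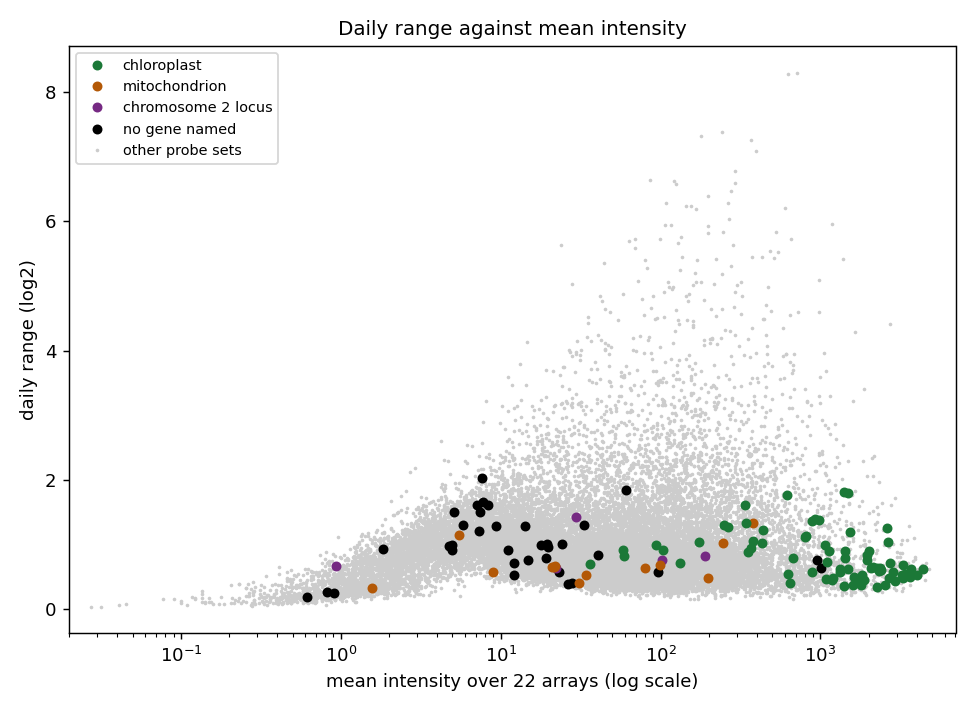
Daily range (log2) against mean intensity over 22 arrays (log axis) for the organelle block, coloured by compartment, and for all other probe sets in grey. Among probe sets with a mean over 1000, the median range was 0.61 for 47 block members and 0.62 for 474 others, and none of the coloured points among those tested reached 2.

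How the ranges compared at equal brightness depended on the band. Over 1000 in mean intensity, the median range was 0.61 for 47 members and 0.62 for 474 others. Between 300 and 1000 it was 1.11 for 19 members and 0.83 for 1723 others, and between 100 and 300 it was 0.92 for 9 members and 0.80 for 4389 others. From 30 to 100 it was 0.76 for 12 members and 0.77 for 6363 others. Under 30 it was 0.92 for 38 members and 0.90 for 9672 others. The SD between arrays of an hour was 0.69 for the members between 300 and 1000, against 0.23 for the others there, and 0.24 against 0.21 above 1000. This SD includes the difference between the series, whose median size between 300 and 1000 was 0.90 for members and 0.17 for others.

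psbD, which encodes the D2 reaction centre protein of photosystem II, had the widest range of a named chloroplast gene. Its intensities over the hours were 1337, 1748, 1097, 1489, 1381, 1700, 2006, 1983, 1697, 1774 and 1572 in series 2. In series 1 they were 1343, 501, 267, 941, 1226, 1122, 1367, 1861, 1816, 1509 and 1104. Both series were lowest at 2 h, but series 1 was far lower there, and the 1 h values lay on opposite sides of the daily median. psbB, the CP47 antenna protein of photosystem II, read 1355 in series 2 and 229.9 in series 1 at 2 h, and 1873 in series 2 and 2038 in series 1 at 20 h. rpl20, a ribosomal protein, had a range of 1.76, ndhE one of 1.39 and rpl14 one of 1.37. The highest hour was 14 h for psbD, ndhE and rpl14.

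Most chloroplast probe sets were lowest at 2 h. The lowest hourly mean fell at 2 h in 47 of 72 and at 1 h in 14, against 7.8% and 10.4% of the probe sets outside the block. The highest fell at 14 h in 22 and at 12 h in 14, against 9.57% and 13.7% of those outside the block. The median deviation of the 72 from their own mean log2 values was -0.20 in series 2 and -0.67 in series 1 at 2 h. At 1 h it was 0.16 in series 2 and -0.42 in series 1. On the remaining arrays it lay between -0.14 and 0.29. The low values thus came from 3 arrays, and the 1 h array of series 2 was not among them. The 2 h arrays and the 1 h array of series 1 were also among the 4 arrays with the lowest 25S ribosomal RNA signal. The part of this signal in the result was not tested. The block held 2.70% to 4.36% of the summed intensity per array.

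**Figure D2:**
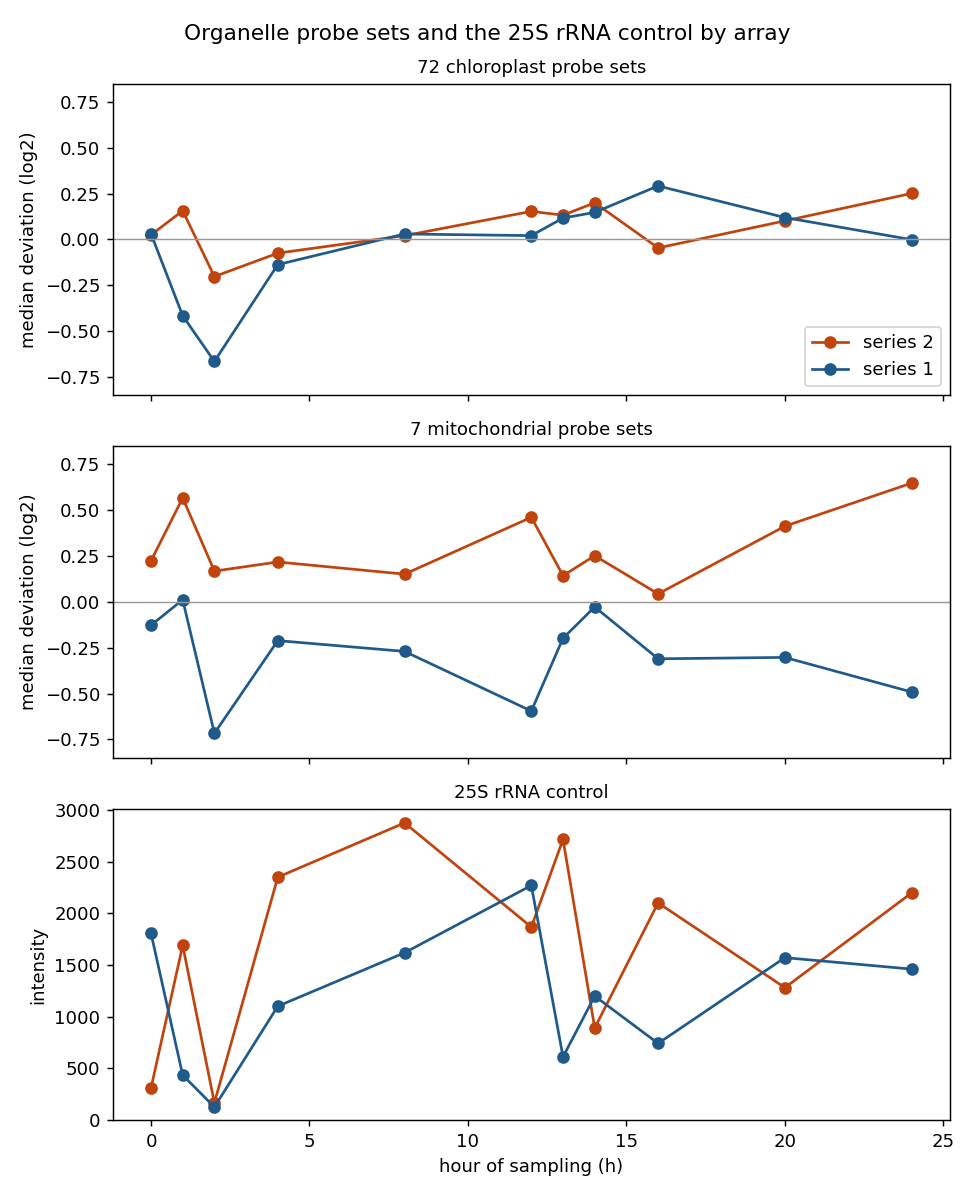
Median deviation (log2) of the 72 chloroplast and 7 mitochondrial probe sets from their own mean log2 values on each array, and the intensity of the 25S ribosomal RNA control, by hour, for series 2 and series 1. The chloroplast median was lowest at 2 h (-0.20 in series 2 and -0.67 in series 1), and the mitochondrial median of series 2 lay above that of series 1 at every hour.

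Few members passed the tests over time. By limma with Benjamini-Hochberg adjustment over all 13648 probe sets, 1 of 90 changed over the time course (1.11%), against 26.5% of all probe sets tested. With the replicate series as a block it was 2 of 90, against 44% of all. The gene called in both fits was atpF, subunit b of the chloroplast ATP synthase, which anchors the catalytic head to the membrane part. It read between 1589 and 2522 with a median of 1935 in series 2, and between 1022 and 2397 with a median of 2149 in series 1. Its range was 0.83, between a low at 1 h and a high at 14 h (adjusted p = 0.0481, and 0.0249 with the block). The block added rpl14, a ribosomal protein (adjusted p = 0.0779, and 0.0169 with the block). Without the 1 h and 2 h arrays no member passed (0 of 90, against 23.3% of all), a check chosen after these arrays were seen.

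A 24 h cosine wave was called in 6 of 90 members (6.67%), against 35.4% of all probe sets tested, and in 11 with the series as a block, against 42.2%. The 6 were also called with the block. They were psbD, psbH, ndhH, ndhC, rpl32 and rps2, and their fitted peaks fell between 14.9 and 18.1 h. The wave of psbD spanned 1.00 from trough to peak (adjusted p = 0.0462 by limma) with its peak at 15.9 h. That of rpl32, a ribosomal protein, spanned 0.57 (adjusted p = 0.0144) with its peak at 18.1 h. psbH, a small photosystem II subunit, spanned 0.49 (adjusted p = 0.0373). The block added petL, psbT, psbZ, cemA and psbJ, of which 3 encode photosystem II subunits. Without the 1 h and 2 h arrays 3 members were called (against 32.1% of all), and with a second harmonic 0 (34.4%).

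The median chloroplast transcript stood higher at 13 to 24 h than at 1 to 12 h. The median difference was 0.21 over the 72 chloroplast probe sets and -0.01 over all probe sets tested. With quantile normalization in place of the authors' scaling the chloroplast median was 0.12. By limma 8 of 90 members were higher (8.89%), against 10.7% of all, and 0 were lower, against 13%. With the series as a block 28 were higher (31.1%), against 16% of all, and the 8 were among them. All 28 were chloroplast probe sets. The share without the block was below that of the array as a whole and the share with it above.

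atpF was higher by 0.44 ± 0.10 (SE, adjusted p = 0.00416). It read 1950 to 2522 with a median of 2216 on the 10 arrays of 13 to 24 h, and 1022 to 2149 with a median of 1775 on those of 1 to 12 h. rpl32 was higher by 0.38 ± 0.09 (adjusted p = 0.00519), with 1263 to 1754 at 13 to 24 h and 936 to 1438 at 1 to 12 h. The difference was 0.51 in series 2 and 0.26 in series 1. For both genes the 2 parts of the day overlapped. 244939_at, which lists both copies of the ribosomal gene rps12, was higher by 0.39 ± 0.13 (adjusted p = 0.0409), and psbH by 0.38 ± 0.11 (adjusted p = 0.0239). ndhC, psbM, psbI and rps2 were higher by 0.21 to 0.30. All 8 moved the same way in both series. With each of the 22 arrays left out in turn, the calls of atpF, rpl32 and ndhC held in every fit. The call of psbM was lost in 18 of these fits, that of 244939_at in 15, rps2 in 13, psbI in 12 and psbH in 8.

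By function, photosystem II supplied 10 of the 28 called with the block, from 13 probe sets. The NDH complex supplied 5 of 11 and the ribosome 4 of 19, against 16% of all probe sets tested. Photosystem I and its assembly factors supplied 3 of 7, the cytochrome b6f complex 2 of 6, the ATP synthase 2 of 5, other chloroplast genes 2 of 6, and the RNA polymerase and Rubisco 0. Median differences were 0.28 in photosystem II, 0.25 in photosystem I, 0.27 in the NDH complex, 0.21 in the ATP synthase, 0.13 in the RNA polymerase and 0.15 in the ribosome. psbD differed by 0.69 ± 0.24, which passed with the block alone (adjusted p = 0.0504, and 0.0079 with the block). rbcL did not pass (adjusted p = 0.997). None of the 7 mitochondrial probe sets passed.

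The difference was smaller without the 1 h and 2 h arrays. The median over chloroplast probe sets was then 0.10, and 1 member passed (against 8.35% of all), or 9 with the block (against 13.9%). The 1 was rpl32, at 0.38 ± 0.10 (adjusted p = 0.0138). atpF was at 0.22 ± 0.08 (adjusted p = 0.0787) and psbD at 0.35 ± 0.13 (adjusted p = 0.0847).

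Nuclear genes of the same complexes differed between these hours in part. Of 30 nuclear photosynthesis subunits listed, 7 were named and tested, of which 3 were higher at 13 to 24 h and 0 lower. Of all probe sets tested, 10.7% were higher and 13% lower. PSAN, a photosystem I subunit, was higher by 0.47 ± 0.09 (adjusted p = 0.00189). NdhN of the NDH complex differed by -0.02 ± 0.07 (adjusted p = 0.896). Of 14 nuclear respiration subunits 5 were tested, and 1 was higher and 1 lower. The nuclear factors that drive plastid transcription could not be followed, since 1 of 19 was named and it did not pass the filter, as with 1 of 11 genes for organelle RNA processing.

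No member passed between 12 h and 0 h (0 higher, against 8.07% of all, and 0 lower, against 7.44%). Between 24 h and 0 h, the same clock hour a day apart, 0 members passed, against 0% of all. With 2 arrays per hour these comparisons detect only changes that are large beside the spread of the members.

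**Figure D3:**
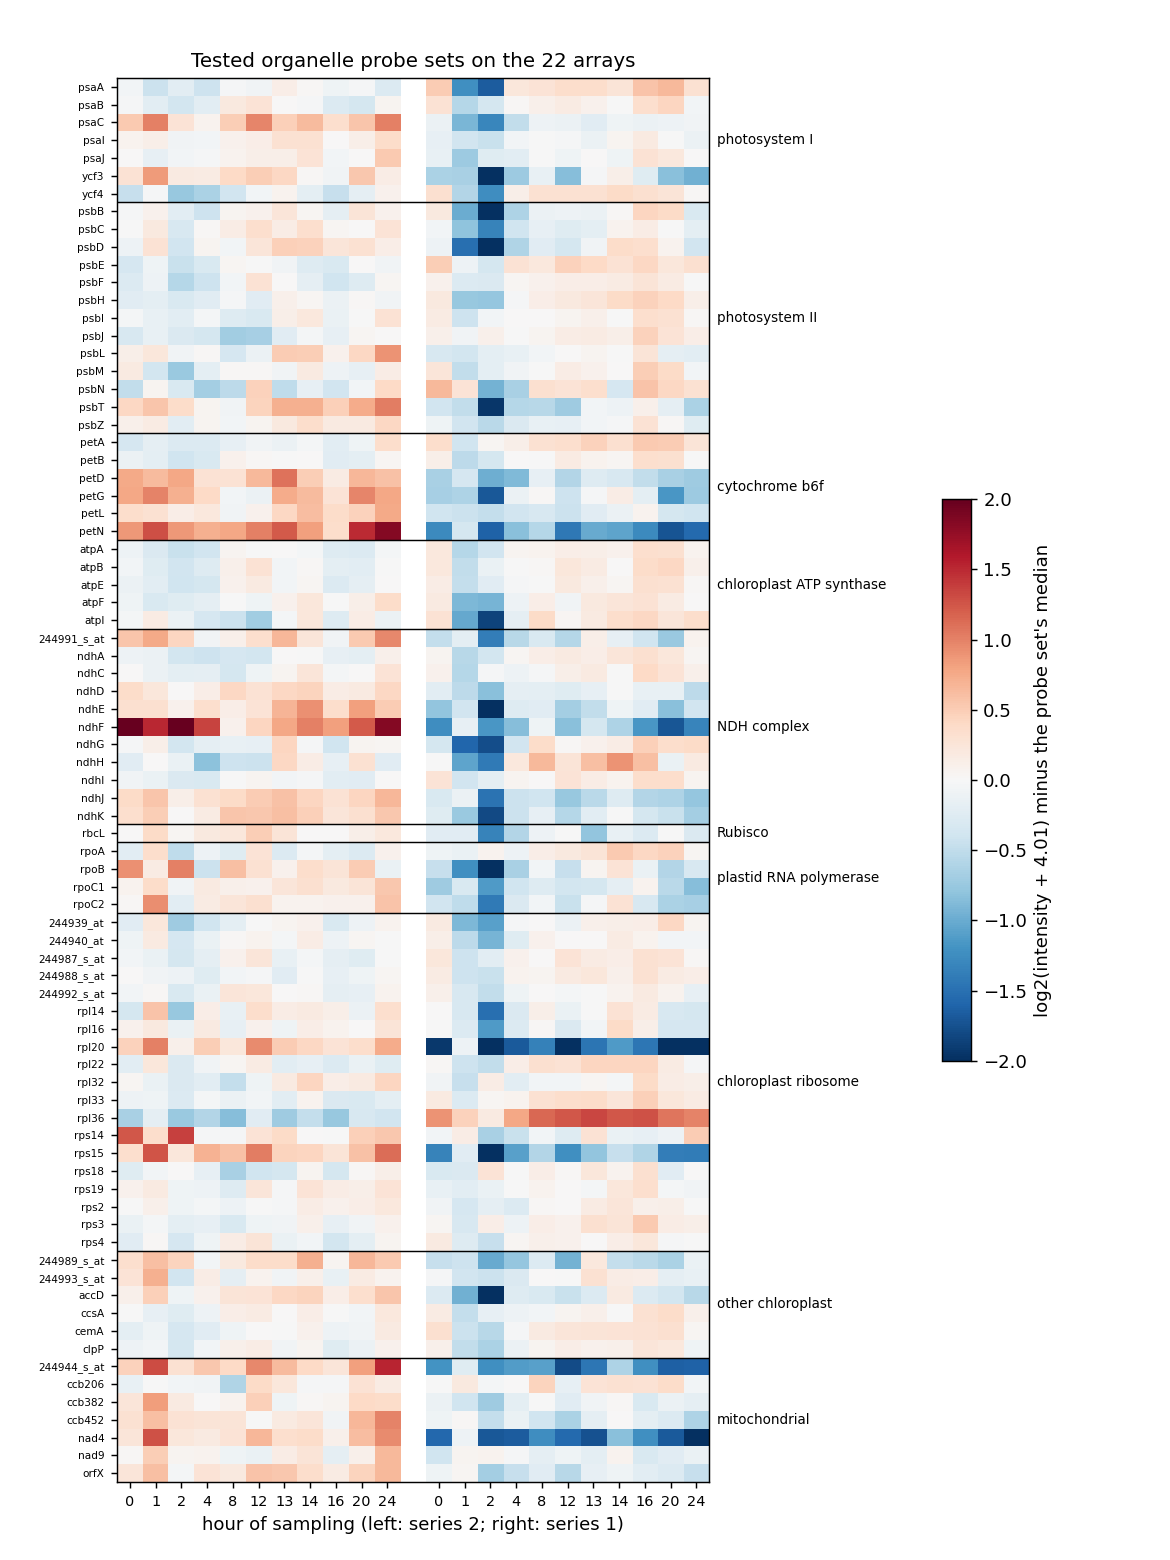
Log2(intensity + 4.01) minus the probe set's own median for the 72 chloroplast and 7 mitochondrial probe sets tested, in rows by function, on the arrays of series 2 (left) and series 1 (right) in order of hour. Blue columns at 1 h and 2 h stand out in series 1, and rows such as petN, rpl20, nad4 and rpl36 differ between the series at every hour.

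The replicate series differed in many organelle transcripts. By limma with the hour as a block, 39 of 90 members were higher in series 2 (43.3%), against 19.2% of all probe sets. In the same fit 9 were lower (10%), against 16.4%. Without the 1 h and 2 h arrays 36 were higher, against 17.4% of all, and 22 lower, against 14.9%. The difference was 1 or more on the log2 scale in either direction in 16 of 90 members (17.8%) and in 109 of the 13558 others (0.804%). The series did not overlap on any array for 18 members, of which 16 were higher in series 2, and for 86 of the 13558 others, of which 60 were higher. The median difference was 0.15 over the 90 members, 0.06 over the chloroplast and 0.60 over the mitochondrial probe sets, and 0.01 over all probe sets tested. The chloroplast median changed sign with the arrays used, being -0.02 without the 1 h and 2 h arrays and -0.03 without the 3 arrays of highest actin ratio.

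The difference was greatest at middle brightness. Its median was 0.79 for 12 members with a mean of 30 to 100, 1.13 for 9 of 100 to 300, 0.78 for 19 of 300 to 1000 and -0.10 for 47 over 1000. For the other probe sets of these bands it was 0.02, 0.03, -0.03 and -0.11. Under 30 it was -0.08 for 38 members and -0.07 for 9672 others. In the top band and under 30 the median of the members lay next to that of the others, and in the bands from 30 to 1000 it lay higher.

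**Figure D4:**
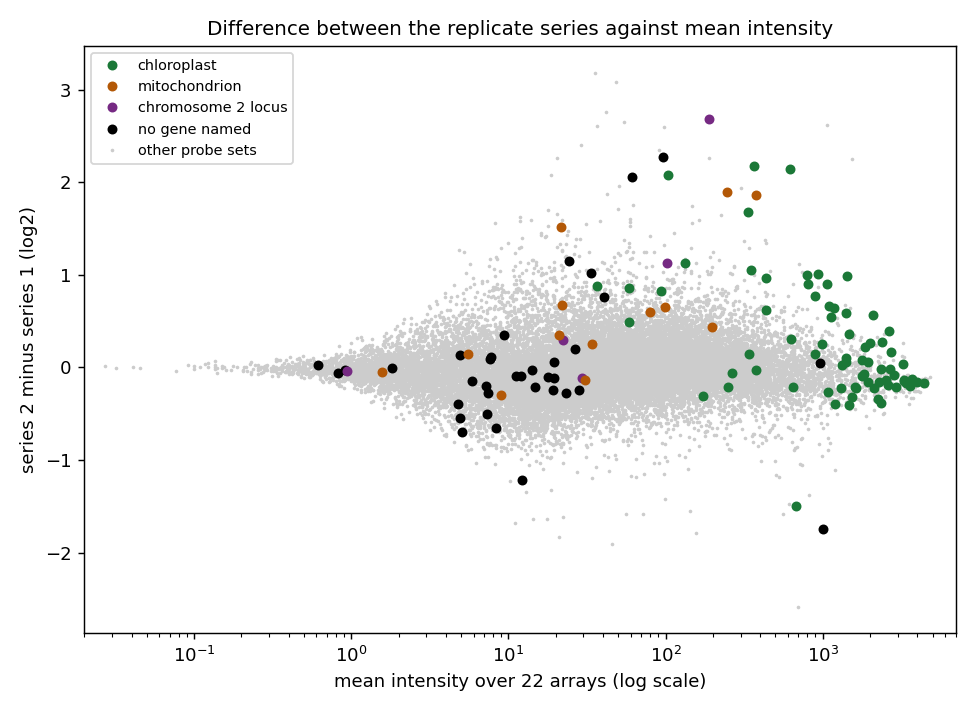
Difference between series 2 and series 1 (log2) against mean intensity over 22 arrays (log axis) for the organelle block, coloured by compartment, and for all other probe sets in grey. Of the 90 tested members 14 stood at 1 or above and 2 at -1 or below, against 81 and 28 of 13558 others.

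Among chloroplast genes the largest rise was in petN, a small subunit of the cytochrome b6f complex. Its intensities over the hours were 519, 702, 519, 467, 489, 572, 669, 503, 363, 803 and 1018 in series 2. In series 1 they were 115, 221, 89.9, 157, 189.9, 103, 139, 135, 115, 82.7 and 94.2. Every array of series 2 lay above every array of series 1, and the difference was 2.17 ± 0.17 (SE, adjusted p = 5.96e-07), or 4.52-fold. rpl20 averaged 989 ± 210 in series 2 and 243 ± 145 in series 1 (SD, n = 11 each), a difference of 2.14 ± 0.15 (adjusted p = 3.27e-07). ndhF, a membrane subunit of the NDH complex, averaged 170.5 ± 81.5 in series 2 and 35.6 ± 14.4 in series 1 (2.08 ± 0.26, adjusted p = 3.91e-05). rps15, a ribosomal protein, averaged 509.6 ± 134 in series 2 and 164 ± 62.5 in series 1 (1.67 ± 0.16). None of these 4 overlapped between the series.

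petD, subunit IV of the cytochrome b6f complex, petG, another of its small subunits, and ndhE followed with 1.13, 1.05 and 1.01. psbT of photosystem II stood at 0.99, ndhJ at 0.99, ycf3, a photosystem I assembly factor, at 0.96, psaC, which carries iron-sulfur clusters in photosystem I, at 0.91, and ndhK at 0.90. rbcL averaged 1331 ± 154 in series 2 and 936 ± 217 in series 1, again without overlap (0.54 ± 0.10, adjusted p = 0.00106).

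In the other direction, rpl36, a ribosomal protein, averaged 345 ± 56.9 in series 2 and 999 ± 225 in series 1. It was lower by 1.50 on the log2 scale (-1.50 ± 0.12, adjusted p = 6.11e-07) at every hour, and no array overlapped. 244979_at, with no gene named and the ID number just before that of rpl36, read 378 to 668 in series 2 and 983 to 1890 in series 1 (-1.74 ± 0.13, adjusted p = 4.99e-07). The remaining falls were smaller and the series overlapped in them. psbE of cytochrome b559, a part of photosystem II, was at -0.41, psbJ at -0.39, petA, cytochrome f, at -0.38 and rpl33 at -0.34. psbF, rps3 and ndhI were between -0.22 and -0.21, and their calls were lost in 12, 10 and 12 of the 22 fits that leave out an array. With the hour as a block, leaving out either array of an hour gives the same difference, so these are not 22 separate checks.

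**Figure D5:**
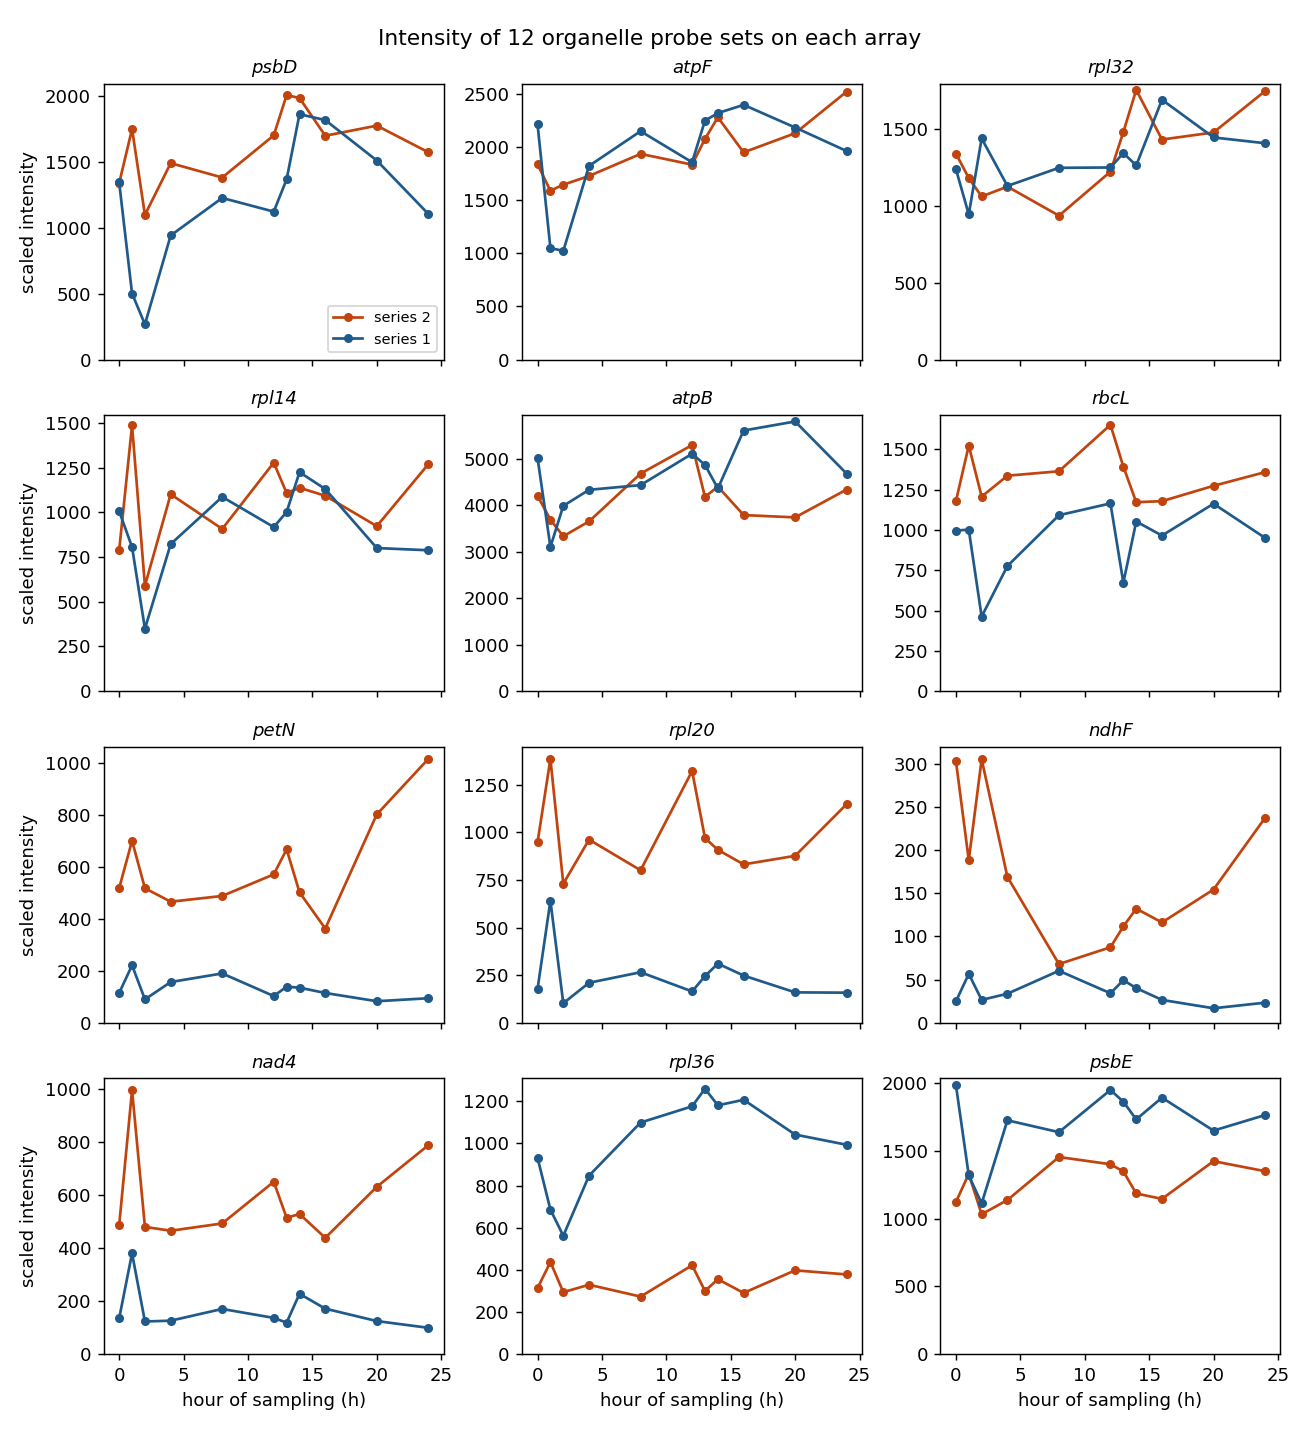
Scaled intensity by hour for 12 members on the 11 arrays of series 2 and the 11 of series 1. The lines of petN, rpl20, ndhF, nad4, rbcL and rpl36 do not overlap between the series, whereas those of psbD, atpF, rpl32, rpl14 and atpB cross.

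Of the 7 mitochondrial probe sets, 6 were higher in series 2 and 0 lower, against 19.2% and 16.4% of all probe sets tested. nad4 read between 438 and 994 with a median of 514 in series 2, and between 99.5 and 380 with a median of 135 in series 1. The series did not overlap, and the difference was 1.87 ± 0.13 (adjusted p = 2.60e-07). 244944_s_at differed by 1.89 ± 0.16, orfX by 0.65, ccb452 by 0.60, ccb382 by 0.44 and nad9, another complex I subunit, by 0.25, and ccb206 was at -0.13 (adjusted p = 0.383). The median deviation of the 7 ran from 0.04 to 0.65 on series 2 arrays and from -0.72 to 0.01 on series 1 arrays. The largest difference in the block was that of AT2G07751, a chromosome 2 locus, with 198 to 423 in series 2 and 31.5 to 74.7 in series 1 (2.69 ± 0.10, adjusted p = 1.86e-10). The unnamed 244921_s_at and 244990_s_at differed by 2.27 and 2.06. The arrays of higher actin ratio are mostly those of series 2, and the part of RNA quality in these differences was not tested. Without the 3 arrays of highest actin ratio 34 members were higher (against 14.4% of all) and 18 lower (against 13%). petN, rpl20, nad4 and AT2G07751 stayed higher and rpl36 and 244979_at lower in each setting tried.

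Group by group, the NDH complex had 6 of 11 higher and 1 lower in series 2, the cytochrome b6f complex 4 of 6 and 1, the RNA polymerase 3 of 4 and 0, and photosystem I with its assembly factors 3 of 7 and 0. Photosystem II had 5 of 13 higher and 3 lower, and the ribosome 3 of 19 higher and 3 lower. Of all probe sets tested, 19.2% were higher in series 2 and 16.4% lower. No ATP synthase probe set passed in either direction, with differences from -0.20 to 0.06. Of the 7 nuclear photosynthesis subunits 0 were higher and 4 lower, PSAE-1 by -0.40 ± 0.08 (adjusted p = 0.00182), and of the 5 nuclear respiration subunits 3 were higher.

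Among genes known to share a transcript, the differences were close in some units and unlike in others. atpB and atpE stood at -0.17 and -0.15, and atpI, rps2, atpA and atpF between -0.20 and 0.06, none of which passed. In the psbB unit, psbT was higher by 0.99 and petD by 1.13, whereas psbH stood at -0.16 (adjusted p = 0.205), petB at -0.13 (adjusted p = 0.187) and psbB at 0.36 (adjusted p = 0.180). In the ndhC unit, ndhJ and ndhK were higher by 0.99 and 0.90, and ndhC stood at -0.07 (adjusted p = 0.466). In the unit that holds rpl36, rps3 was lower as well (-0.21), whereas rpoA at -0.26, rpl22 at -0.22, rps19 at 0.08, rpl14 at 0.25 and rpl16 at 0.26 did not pass (adjusted p between 0.0541 and 0.396). psbD, psbC and psbZ, also read together, were higher by 0.59, 0.40 and 0.28. These differences between genes of a unit were not tested against each other.

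Over the 22 arrays, which share their scaling, the median correlation between log2 levels was 0.43 for the 2556 pairs of chloroplast probe sets, 0.71 for the 21 mitochondrial pairs and 0.18 for the 504 pairs between the genomes. It was 0.98 for atpB with atpE, whose reading frames adjoin. It had a median of 0.86 within psbD, psbC and psbZ, 0.67 within atpI, rps2, atpA and atpF, 0.69 within rpoB, rpoC1 and rpoC2, and 0.50 in the psbB unit. In the ndhC unit it was 0.01, for psaA, psaB and rps14 0.04, and for psbE, psbF, psbJ and psbL 0.22. Taken over the replicate differences of the 11 hours instead, which leaves out the mean difference between the series, it was 0.49 for all chloroplast pairs. On this measure it was 0.19 in the ndhC unit, 0.25 for psbE, psbF, psbJ and psbL, and 0.50 for psaA, psaB and rps14. In the other units named here it lay between 0.56 and 0.96.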

How the data were processed

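Leaf RNA from 22 samples was measured on Affymetrix ATH1 arrays. The authors' deposited table gives each array's linear intensity per probe set. Trimmed of 2% at either end, the mean came to 100.01 on all arrays, so the authors had scaled them. The software was not given in the sources used here. There are 22746 probe sets besides 64 controls. Genes came from the platform annotation (81 members with 1 gene, 9 with several, 35 with none) and compartments from RefSeq's gene table. Members and gene lists were chosen with earlier results of these data known.

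Values were transformed to log2(value + 4.01), a pseudocount of 10% of the median of all values (40.1). The filter kept 60% of probe sets, ranked by mean log2 value (13648). Ranking on mean intensity was run as well, and the log2 ranking was preferred after both had been seen. The R package limma (version 3.58.1, R 4.3.3; lmFit, then eBayes with trend) gave two-sided tests with Benjamini-Hochberg adjustment over 13648 probe sets and a threshold of 0.05. Time tests had 11 residual degrees of freedom. The number of arrays limits the precision. The fits were tested on simulated data.

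Members described in full were the brightest and widest per compartment, the largest differences each way, and up to 4 of each functional group. Replicate numbers pair the samples. The correlation of the replicate differences over 55 pairs of hours was 0.12 to 0.63 (median 0.40), and 0.60 to 0.92 among tested members, so values with the replicate block stand beside counts it moved by over 1.5 times. The sample titles carry a different prefix for each replicate number, but the labels do not say what the arrays under a prefix share. The title of the 24 h array of series 2 ends in "repeat", with no more said. Alternatives covered the pseudocount, filter, scaling, trend, weights, block, harmonics, hours and each array left out.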

Additional observations from a re-analysis of the deposited data

Results flagged for a closer look

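Chloroplast genes were also measured by 5 probe sets whose ID numbers lie outside the block, and which were counted among the other probe sets wherever the block was set against them. All 5 were well above the control level of 7.8 to 29.2 on every array. atpH, a membrane subunit of the ATP synthase, had a mean intensity of 2191, psbA, the D1 protein of photosystem II, 3258, matK, an intron maturase, 2202, psbK, a photosystem II subunit, 2472, and rps16, a ribosomal protein, 231.4. psbK averaged 2043 in series 2 and 2902 in series 1 (-0.49 ± 0.09, adjusted p = 0.000527 by limma) and rps16 203 in series 2 and 260 in series 1 (-0.35 ± 0.10, adjusted p = 0.0156). matK averaged 2453 in series 2 and 1951 in series 1 (0.33 ± 0.07, adjusted p = 0.00128). psbA differed by 0.26 ± 0.10 (adjusted p = 0.0432) and atpH by -0.18 ± 0.17 (adjusted p = 0.413). None of the 5 passed the time course, rhythm or 13 to 24 h tests, and with the replicate block rps16 and psbK passed the last of these.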

How the results depend on the processing

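The number higher in series 2 stayed between 32 and 44 in the alternatives, while 8.76% to 20.6% of all probe sets tested were higher. The 32 was out of 79 members, with the upper 40% of probe sets, and the 44 out of 90. With each array left out the number was between 37 and 41. The number lower, 9 in all arrays (against 16.4% of all probe sets tested), was 15 with equal array medians (against 18.5%). It was 18 without the 3 arrays of highest actin ratio (against 13%), which are series 2 at 1, 12 and 24 h. With the hour as a block this is the same as leaving out both arrays of these hours (18, against 12.9%). It was 22 of 90 without the 1 h and 2 h arrays, against 14.9% of all. With each array left out it was 6 to 19, the 19 without either 1 h array. The counts over time were less stable. Of all probe sets tested, the alternatives called 15.1% to 44% for the time course and 21.6% to 42.6% for the rhythm. For 13 to 24 h higher they called 6.41% to 16% of all. For the time course (1), the count was 0 with quantile normalization, without a trend, without the 8 h and 16 h arrays and without the 1 h and 2 h arrays, 2 with equal medians and 2 with the replicate block. It was 0 when any 1 of 16 of the 22 arrays was left out, 2 without the series 1 array of 1 h, and 4 without the series 2 array of 1 h or of 2 h. For the rhythm (6), it was 2 with no filter, 1 with quantile normalization, 14 with equal medians, 11 with the block, 0 with 2 harmonics, 11 without the 3 arrays of highest actin ratio, 1 without the 8 h and 16 h arrays and 3 without the 1 h and 2 h arrays. With single arrays left out it was 1 to 8, with 1 for series 2 at 2 h, 2 for series 1 at 13, 14 or 16 h or series 2 at 14 h, and 3 for series 1 at 1, 2 or 12 h or series 2 at 8 or 20 h. For 13 to 24 h higher (8), it was 5 with quantile normalization, 4 with equal medians, 28 with the block, 5 without the 8 h and 16 h arrays and 1 without the 1 h and 2 h arrays. With single arrays left out it was 3 to 19, with 19, 15, 16 and 13 without the series 2 arrays of 1, 2, 16 and 20 h, 3 without series 1 at 1, 16 or 20 h or series 2 at 8 or 12 h, 4 without series 1 at 13 h or series 2 at 24 h, and 5 without series 1 at 2 h or series 2 at 4, 13 or 14 h. The number lower, 0, was 1 with quantile normalization. The time fits without the replicate block had no term for the series. With the 3 arrays of highest actin ratio or any single array left out, the hours concerned rest on the other series alone. The difference between the series then enters the time pattern in these fits. No share of all probe sets is set beside the counts with a single array left out. The cause of the moves in these counts was not tested. Ranking on mean intensity gave 1, 6 and 9 for the 3 time counts and 39 and 10 for the series. None of the 8 members called for 13 to 24 h, and none of the 10 largest rises and 9 falls called for the series, changed sign in any alternative run for it. The settings that drop the 1 h and 2 h arrays, or the 1 h, 12 h and 24 h arrays, and the ranking on mean intensity were chosen after seeing the data.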
